A study of Mus musculus with 41 samples.

Results

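Kap, Slc7a13, Cyp7b1, Odc1 and Slco1a1 are 5 genes of the mouse proximal tubule whose transcripts are known to depend on androgen, and they were taken by name from a count table of 48795 genes. They were chosen by name with their values known: the falls of Kap and its companions after injury and after nephrectomy in both cohorts had been seen. The differences between groups given for them are therefore descriptions and carry no p value. The files hold no hormone measurement, castration or androgen treatment, so the response of the 5 genes to androgen is background here and was not measured.

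Messenger RNA was counted in 40 mouse kidney libraries, each from a frozen section of a kidney pole, with a method that reads the 3′ end of each transcript (QuantSeq). In the first cohort, male mice aged 8 to 10 weeks were either left without ischemia (Control) or had the blood supply of the left kidney clamped for 21 minutes at a core temperature of 34 °C (UIRI, unilateral ischemia-reperfusion injury). With 6 libraries each, the groups are Control, UIRI d3, taken 3 days after ischemia, UIRI d7, taken at day 7 after a sham operation on the other side at day 3, and UIRI+Nx d7, taken at day 7 after removal of the uninjured right kidney (nephrectomy) at day 3. The second cohort is labelled wild type and holds WT IR d3 with 6 libraries, WT IR d7 with 6 and WT IR+Nx d7 with 4. Its labels give no sex, age, ischemia time, temperature or day of nephrectomy, and it has no control kidneys. Neither the strain of the mice nor the side of the Control kidneys is stated in the sources used here. 1 further deposited sample, titled UNDETERMINED, has no group and enters no comparison. Groups were compared within each cohort only, since the submitters' processing notes name a different genome build for each. The exception is 1 joint fit of the difference between cohorts in the nephrectomy comparison.

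The proximal tubule of the mouse is one of the tissues that differ most between males and females. Testosterone acts on the tubule cell, so that males transcribe many transporters and steroid-handling enzymes more than females do. The straight part of the tubule, which lies in the outer medulla and inner cortex, is the part most exposed to ischemic injury. Kap encodes the kidney androgen-regulated protein, an abundant small protein of the tubule cell. Slc7a13 is a transporter of acidic amino acids and cystine and pairs with the subunit Slc3a1. Slco1a1 is an organic anion transporter that carries steroid conjugates. Cyp7b1 hydroxylates oxysterols and steroids, and Odc1, ornithine decarboxylase, makes putrescine in the first step of polyamine synthesis.

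All 5 are protein-coding genes, and their positions on GRCm38 were read from GENCODE. Kap (ENSMUSG00000032758) lies at chr6:133849851-133853762 on the minus strand and has 4 exons in its longest transcript. Slco1a1 (ENSMUSG00000041698) lies on the same chromosome at chr6:141907282-141946962, also on the minus strand, with 15 exons. Slc7a13 (ENSMUSG00000041052) lies at chr4:19818725-19842218 on the plus strand with 4 exons. Cyp7b1 (ENSMUSG00000039519) lies at chr3:18071950-18243338 on the minus strand with 6 exons. Odc1 (ENSMUSG00000011179) lies at chr12:17544794-17551505 on the plus strand with 12 exons. The small genes Gm23686, Gm22748 and Gm22036 overlap Cyp7b1, Odc1 and Slco1a1 on the same strand, and Odc1 also has processed pseudogenes in the mouse genome. How reads shared with them were counted is not given in the sources used here, so the counts of these 3 genes are uncertain to that extent.

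The promoters of Kap, Odc1 and Slco1a1 are shown because Kap and Slco1a1 were called lower with nephrectomy than without it on day 7 in both cohorts, and Odc1 in neither. They were matched by symbol, 3 of the 5 genes, to the RefSeq table of GRCm38.p6, and each is the 250 bases before the RefSeq start in the direction of the gene. The GENCODE models of Kap and Odc1 begin inside these windows. Capitals mark the letters TATAAA, searched on both strands and written TTTATA where the match is on the other strand. The windows are chr6:133853668-133853917 on the minus strand for Kap, chr6:141946963-141947212 on the minus strand for Slco1a1 and chr12:17544623-17544872 on the plus strand for Odc1.
Kap: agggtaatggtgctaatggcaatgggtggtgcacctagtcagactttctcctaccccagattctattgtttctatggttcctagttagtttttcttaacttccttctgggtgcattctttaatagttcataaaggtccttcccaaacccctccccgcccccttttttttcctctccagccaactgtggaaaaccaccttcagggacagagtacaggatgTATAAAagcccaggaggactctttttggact
Slco1a1: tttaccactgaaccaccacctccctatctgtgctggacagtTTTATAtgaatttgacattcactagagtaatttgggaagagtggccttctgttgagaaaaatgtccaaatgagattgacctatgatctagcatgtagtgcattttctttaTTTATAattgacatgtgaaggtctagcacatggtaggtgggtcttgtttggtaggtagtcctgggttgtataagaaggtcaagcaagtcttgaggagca
Odc1: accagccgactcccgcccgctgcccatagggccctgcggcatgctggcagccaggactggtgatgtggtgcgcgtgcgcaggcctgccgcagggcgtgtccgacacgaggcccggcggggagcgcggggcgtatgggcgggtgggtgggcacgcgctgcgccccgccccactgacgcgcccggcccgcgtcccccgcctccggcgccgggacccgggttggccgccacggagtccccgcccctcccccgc

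Kap has TATAAA at 31 to 26 bases before its start. Slco1a1 has 2 matches on the opposite strand, 209 to 204 and 99 to 94 bases before its start, and the Odc1 window has none. TATAAA occurs in 12.4% of the 32851 promoters of the same length. The E-box CACGTG, in 6.02% of promoters, is not in these 3. A match is a run of letters and not a measured binding site.

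The 40 grouped libraries held between 5090418 and 33362940 counts, and levels are given as CPM, the count of a gene scaled to the size of its library. A 3′ count does not scale with transcript length. How fully the reads of each gene were counted is not known, so CPM of different genes compare only roughly. UIRI d7 replicates 5 and 6 stood apart from the other 4 libraries of their group in 3 of the 5 genes, and results that rest on them are given with and without them. Both lie in the same library block, a set inferred from the sample-sheet numbers in the column names and not named by the labels. On a score made from 401 genes higher and 410 lower after nephrectomy in the second cohort (mean log2 level of the first set minus the second, the 5 genes left out), these 2 libraries stood at 1.03 and 0.911. The other UIRI d7 libraries stood between -0.02 and 0.793, and UIRI+Nx d7 between 1.35 and 2.79. Kidneys without nephrectomy also reached high scores, from 1.53 to 1.76 in Control and from 0.768 to 1.76 in UIRI d3, and both groups overlapped UIRI+Nx d7. Whether the labels of these 2 libraries are right cannot be told from the files, and the UIRI d7 values and the comparison with nephrectomy rest on the labels as given. Xist had 0 to 10 counts and the Y-linked Ddx3y 476 to 3588 counts in all 40 libraries of both cohorts, a pair of genes picked after their values were seen. Markers of other structures moved with the groups: summed macrophage markers (8 genes) ran from 170 to 328 CPM in Control and from 1458 to 3197 in UIRI d7, and thick ascending limb markers (5 genes) from 4608 to 6699 and from 1314 to 1989. The part of these shifts in the levels below was not tested, and in whole-tissue RNA fewer proximal tubule cells and less RNA per cell cannot be told apart. Markers of the adrenal cortex, which lies on the kidney pole and makes steroids, were low, with 9 genes summing to between 2.92 and 9.77 CPM. Among them Cyp11b2 was at 0 in every library, and Cyp11b1 and Nr5a1 were at 0 in some groups only. Of the 3 markers with enough counts to test, 2 were called higher and 1 lower than Control after nephrectomy. Over all genes 17.3% and 14% were.

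**Figure D1:**
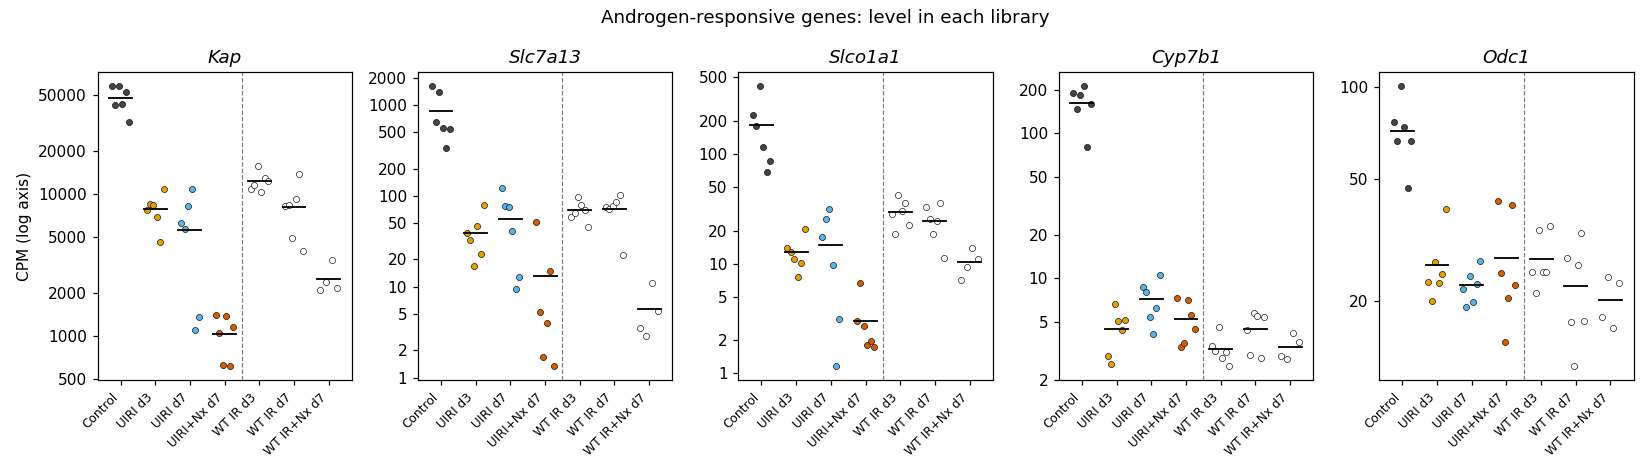
Level of each gene in CPM on a log axis, by group, with 1 point per library and a bar at the group mean; filled points are the first cohort, open points the second, and the dashed line parts them. In the first cohort all 5 genes lay lower in every injured library than in every Control library, and in Kap, Slc7a13 and Slco1a1 UIRI d7 replicates 5 and 6 lay near the UIRI+Nx d7 libraries.

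Kap was the most abundant of the 5. In Control kidneys it ran from 32319 to 57765 CPM with a median of 47428, or 2.68% to 5.27% of all counts. On day 3 after ischemia it ran from 4549 to 10789 CPM with a median of 8022. On day 7 without nephrectomy it ran from 1107 to 10784 CPM with a median of 5943. The spread of the day 7 group was wide because replicates 5 and 6 stood at 1107 and 1360 CPM while the other 4 stood between 5650 and 10784. After nephrectomy Kap ran from 610.2 to 1394.5 CPM with a median of 1098, at most 0.144% of all counts. No injured library reached the lowest Control library.

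The means were 47450.5 ± 10016 (SD, n = 6) in Control, 7790 ± 2053 (n = 6) in UIRI d3, 5554 ± 3798 (n = 6) in UIRI d7 and 1033 ± 348 CPM (n = 6) in UIRI+Nx d7. Against Control the log2 fold change of Kap was -2.61 (SE 0.41) on day 3, -3.09 (SE 0.42) on day 7 and -5.52 (SE 0.47) on day 7 after nephrectomy. These are 6.09-fold, 8.54-fold and 45.9-fold lower levels. The 3 comparisons share the Control libraries.

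Slc7a13, the transporter of the straight tubule, spread widely even among Control kidneys, from 337 to 1625 CPM with a median of 604. On day 3 it ran from 16.7 to 79.5 CPM with a median of 35.8. On day 7 it ran from 9.50 to 122 CPM with a median of 58.4, and replicates 5 and 6 were again the lowest, at 9.50 and 12.9 CPM. After nephrectomy 5 libraries ran from 1.33 to 14.8 CPM, and replicate 1 stood above them at 51.5. The means were 854 ± 528, 39.5 ± 22.3, 56.3 ± 43.3 and 13.1 ± 19.4 CPM (SD, n = 6 each). Against Control, Slc7a13 was 21.6-fold lower on day 3 (log2 -4.43, SE 0.76), 15.1-fold lower on day 7 (-3.92, SE 0.74) and 64.5-fold lower after nephrectomy (-6.01, SE 0.83).

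Slco1a1, the organic anion transporter, ran from 68.6 to 419 CPM in Control with a median of 148. It ran from 7.57 to 20.7 CPM on day 3, with a median of 11.9, and from 1.16 to 31.6 CPM on day 7, with a median of 13.6. The lowest day 7 values, 1.16 and 3.11 CPM, were those of replicates 5 and 6. After nephrectomy it ran from 1.75 to 6.74 CPM with a median of 2.35, and the lowest of these libraries held 16 counts of the gene. The means were 183 ± 130, 12.7 ± 4.50, 14.7 ± 12.3 and 3.00 ± 1.90 CPM (SD, n = 6 each). The log2 fold change of Slco1a1 against Control was -3.85 (SE 0.57) on day 3, -3.62 (SE 0.56) on day 7 and -5.96 (SE 0.64) after nephrectomy, or 14.4-fold, 12.3-fold and 62.2-fold lower.

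Cyp7b1, the oxysterol hydroxylase, showed another course. It ran from 80.4 to 212 CPM in Control, with a median of 172, and fell to between 2.57 and 6.63 CPM on day 3, with a median of 4.74. On day 7 it ran from 4.13 to 10.5 CPM (median 7.15) and after nephrectomy from 3.37 to 7.35 (median 5.03). These groups overlapped, and replicates 5 and 6 of UIRI d7, at 6.26 and 10.5 CPM, did not stand low in Cyp7b1. The means were 163 ± 46.4, 4.46 ± 1.52, 7.17 ± 2.32 and 5.24 ± 1.72 CPM (SD, n = 6 each). Cyp7b1 was 36.5-fold lower than Control on day 3 (log2 -5.19, SE 0.30), 22.7-fold lower on day 7 (-4.51, SE 0.29) and 30.5-fold lower after nephrectomy (-4.93, SE 0.30). On day 3 this was the largest of the 5 differences.

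Odc1, the polyamine enzyme, moved least. It ran from 46.8 to 101 CPM in Control (median 70.5), from 20.0 to 40.0 on day 3 (median 23.8), from 19.1 to 27 on day 7 (median 22.3) and from 14.6 to 42.4 after nephrectomy (median 23.5). The 3 injured groups overlapped throughout, and all of their libraries were below the lowest Control library. The means were 72.1 ± 17.7, 26.2 ± 7.10, 22.4 ± 2.90 and 27.6 ± 11.5 CPM (SD, n = 6 each). Odc1 was 2.75-fold lower than Control on day 3 (log2 -1.46, SE 0.23), 3.22-fold lower on day 7 (-1.69, SE 0.23) and 2.60-fold lower after nephrectomy (-1.38, SE 0.23).

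By mean level, Control stood first for every gene and the order of the injured groups differed between genes. Kap followed day 3, day 7, nephrectomy, and Slc7a13 and Slco1a1 followed day 7, day 3, nephrectomy, where day 3 and day 7 did not differ beyond their spread. The 3 injured groups of Cyp7b1 overlapped, as did those of Odc1.

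In counts, all 5 genes were called lower than Control (adjusted p under 0.05 in edgeR's quasi-likelihood test over 15701 genes) in each of the 3 comparisons. Over all genes, 14.9% were called lower on day 3, 18.1% on day 7 and 14% after nephrectomy. All 5 also had no overlap with Control in any of the 3, which held for 8.08%, 9.61% and 7.38% of all genes. Because the 5 genes were chosen with these values known, nothing is read from these counts. Between day 7 without nephrectomy and day 3 none of the 5 was called, where 1.36% of genes were called lower. The interval of that difference ran from -1.28 to 0.30 on the log2 scale for Kap, from -0.86 to 1.89 for Slc7a13 and from -0.84 to 1.29 for Slco1a1. It ran from 0.14 to 1.24 for Cyp7b1 and from -0.69 to 0.24 for Odc1.

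Day 7 with nephrectomy was then set against day 7 without it. In the first cohort Kap was lower by a log2 fold change of -2.43 (SE 0.40, 95% interval -3.26 to -1.60), a 5.38-fold difference. Slco1a1 was lower by -2.34 (SE 0.57, interval -3.51 to -1.17). Slc7a13 stood at -2.09 (SE 0.70, interval -3.53 to -0.66) and was not called. Cyp7b1 differed by -0.43 (interval -0.97 to 0.12) and Odc1 by 0.30 (interval -0.16 to 0.77). The groups overlapped in all 5 genes. Kap and Slco1a1 were called, 2 of 5, where 3.46% of all genes were called lower; 1.45% of all genes had no overlap in that direction. Summed macrophage markers ran from 1167 to 2198 CPM after nephrectomy, and tubular injury markers (5 genes) from 673.5 to 1089 against 865 to 1928 without it. Their part in these differences was not tested.

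The overlap of Kap came from UIRI d7 replicate 6 and replicate 5 alone: without them the 4 remaining libraries, at 5650 CPM and above, all lay over the highest nephrectomy library at 1394.5. The same was true of Slco1a1, with 9.64 CPM as the lowest remaining library against 6.74. Without the 2 libraries the log2 fold changes were -2.90 (SE 0.28) for Kap, -2.84 (SE 0.46) for Slco1a1 and -2.57 (SE 0.69) for Slc7a13. All 3 were then called, where 3.64% of genes were called lower. The 2 libraries were picked after their low values in these 3 genes were seen. The larger differences, the lost overlap and the calls follow from that choice, and nothing is read from them. Cyp7b1 stood at -0.32 and Odc1 at 0.38 and neither was called. For Slc7a13 a further library mattered. Without UIRI+Nx d7 replicate 1, at 51.5 CPM, its log2 fold change was -3.35 and it was called. It was also called without UIRI d7 replicate 5 alone (-2.31) or replicate 6 alone (-2.30).

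**Figure D2:**
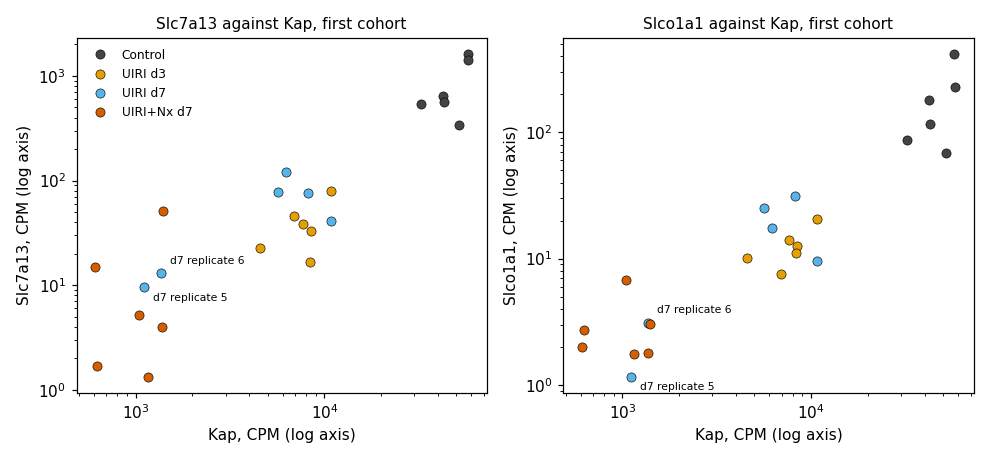
Slc7a13 (left) and Slco1a1 (right) against Kap in the 24 libraries of the first cohort, all in CPM on log axes, with 1 point per library coloured by group. UIRI d7 replicates 5 and 6, at 1107 and 1360 CPM of Kap, lie among the UIRI+Nx d7 points, which reach 1394.5 CPM of Kap; the 1 nephrectomy library at 51.5 CPM of Slc7a13 lies above its group.

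The second cohort also holds day 7 kidneys with and without nephrectomy, though its ischemia time and day of nephrectomy are not given. Kap ran from 3937 to 13864 CPM in WT IR d7 (median 8299), and after nephrectomy its 4 libraries stood at 2113, 2175, 2398 and 3412. Slc7a13 ran from 22.1 to 102 CPM in WT IR d7 (median 76.4), and stood at 2.87, 3.53, 5.36 and 11 after nephrectomy. Slco1a1 ran from 11.2 to 35.5 CPM in WT IR d7 (median 24.8), and stood at 7.16, 9.42, 11.1 and 13.9 after nephrectomy. Kap and Slc7a13 had no overlap between the groups, as had 3.02% of all genes in that direction, and Slco1a1 overlapped. Both enzymes overlapped between the groups. Cyp7b1 ran from 2.81 to 5.74 CPM in WT IR d7 and stood at 2.75, 2.91, 3.62 and 4.21 after nephrectomy. Odc1 ran from 12.2 to 33.4 CPM and stood at 16.3, 17.6, 22.8 and 23.9.

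The means in WT IR d7 and WT IR+Nx d7 were 8073 ± 3527 and 2525 ± 604 CPM for Kap, 72.3 ± 26.8 and 5.70 ± 3.70 for Slc7a13, and 24.6 ± 8.92 and 10.4 ± 2.84 for Slco1a1 (SD, n = 6 and n = 4). The log2 fold change was -1.68 (SE 0.28) for Kap, a 3.20-fold lower level. It was -3.67 (SE 0.41) for Slc7a13, 12.8-fold lower, and -1.25 (SE 0.28) for Slco1a1, 2.38-fold lower. These 3 genes were called, 3 of 5, where 2.66% of all 15543 genes tested were called lower. Summed tubular injury markers ran from 995 to 1513 CPM after nephrectomy against 1385 to 2266 without it in this cohort. Of these 5 markers 1 was called higher and 2 lower, where 2.58% and 2.66% of all genes were. Summed macrophage markers ran from 1491 to 2153 against 1807 to 3405. The mitochondrial share of counts ran from 2.94% to 5.12% against 2.40% to 3.40%. The part of these shifts in the differences was not tested. Without WT IR+Nx d7 replicate 2 the log2 fold change of Slco1a1 was -1.20 and it was not called. Cyp7b1 differed by -0.39 (interval -0.94 to 0.16) and Odc1 by -0.15 (interval -0.64 to 0.34).

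Set beside each other, Kap and Slco1a1 were called lower after nephrectomy in both cohorts, and Slc7a13 in the second. The second cohort's log2 fold change minus the first's was 0.75 (SE 0.51) for Kap, -1.57 (SE 0.90) for Slc7a13, 1.11 (SE 0.69) for Slco1a1, 0.04 (SE 0.38) for Cyp7b1 and -0.44 (SE 0.34) for Odc1. In the joint edgeR fit of 16606 genes, 0 genes were called for this difference between cohorts, and 1411 had an unadjusted p under 0.05. That fit scaled counts of both genome builds together, and the part of the builds in it was not tested. Kap, Slc7a13 and Slco1a1 kept their direction within each library block that could be fitted. Kap stood at -2.88 in the block with 3 against 3 libraries of the first cohort, and at -1.88 and -1.52 in the 2 blocks of the second. Slc7a13 stood at -2.01, -4.54 and -3.12 in these blocks and Slco1a1 at -2.07, -1.80 and -0.86. The nephrectomy and sham kidneys of block 1b were 1 against 3 and were not fitted on their own. There Kap stood at 1371 CPM in the nephrectomy library against 1107, 1360 and 8188 in the sham libraries. Slco1a1 stood at 1.80 against 1.16, 3.11 and 31.6, and Slc7a13 at 4.00 against 9.50, 12.9 and 75.4. Block 2b held 2 libraries of UIRI+Nx d7 and none of UIRI d7, so block and nephrectomy were partly confounded in the first cohort. In the second, all 6 libraries of WT IR d3 lay in block 2a. Block 2c held 4 libraries of WT IR d7 and 2 of WT IR+Nx d7, so day and block were partly confounded there.

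**Figure D3:**
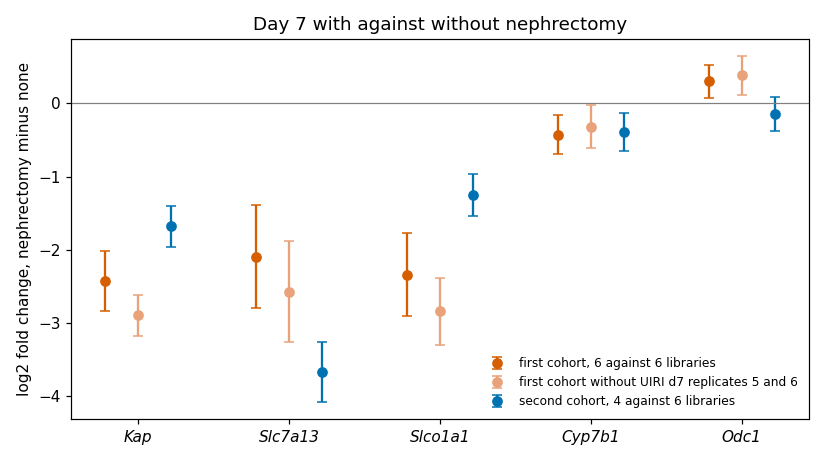
Log2 fold change of each gene on day 7, nephrectomy minus none, with bars of 1 standard error; dark orange is the first cohort, pale orange the first cohort without UIRI d7 replicates 5 and 6, and blue the second cohort. Kap, Slc7a13 and Slco1a1 lie between -1.25 and -3.67 in all 3 fits, and Cyp7b1 and Odc1 lie between -0.43 and 0.38.

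The day 7 kidneys after nephrectomy were also set against day 3, the day of the nephrectomy in the first cohort. Kap was lower by -2.91 (SE 0.41) in the first cohort and by -2.29 (SE 0.29) in the second. Slco1a1 was lower by -2.11 (SE 0.57) and -1.51 (SE 0.28). Slc7a13 differed by -1.58 (SE 0.69, interval -3.00 to -0.16) in the first cohort, where it was not called, and by -3.61 (SE 0.41) in the second. In all, 2 of 5 genes were called lower in the first cohort, where 3.06% of genes were, and 3 of 5 in the second, where 3.04% were. The called genes had no overlap with day 3, as had 2.24% and 3.74% of all genes in that direction. The call of Slco1a1 in the first cohort was lost without UIRI+Nx d7 replicate 3, 4, 5 or 6 or without UIRI d3 replicate 6, with log2 fold changes from -2.10 to -1.92. Without UIRI+Nx d7 replicate 1, Slc7a13 stood at -2.84 and was called. Cyp7b1 (0.26 and 0.04) and Odc1 (0.08 and -0.45) were not called in either cohort.

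In the second cohort none of the 5 was called between day 7 without nephrectomy and day 3, where 4.05% of genes were called lower. Day and library block were partly confounded in this comparison. On day 3 Kap ran from 10393 to 15739.9 CPM (mean 12305 ± 1932, SD, n = 6) and Slc7a13 from 45.6 to 97.9 (69.5 ± 18). Slco1a1 ran from 18.7 to 42.3 CPM (29.7 ± 8.59), Cyp7b1 from 2.47 to 4.58 (3.26 ± 0.724) and Odc1 from 21.2 to 35.0 (27.5 ± 5.66). All 5 genes overlapped between these groups. Kap stood at -0.61 (interval -1.10 to -0.11) and Slc7a13 at 0.06 (interval -0.57 to 0.68). Without WT IR d7 replicate 5 the log2 fold change of Kap was -0.83 and it was called.

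Each gene was also expressed relative to the mean log2 level of other proximal tubule genes, 10 of the straight and 15 of the convoluted part. On this scale Odc1 stood within 0.10 of Control on the log2 scale, at -0.10 on day 3, 0.09 on day 7 and -0.07 after nephrectomy. Kap stood at -1.26, -1.77 and -4.19 against Control, Slc7a13 at -3.02, -2.47 and -5.55, and Slco1a1 at -2.27, -2.30 and -4.37. Cyp7b1 stood at -3.79, -2.74 and -3.54. The direction of Odc1 depended on which tubule genes it was set against, with 0.45 against the straight genes alone and -0.46 against the convoluted genes alone on day 3. For nephrectomy against none on day 7, the relative differences of the first and the second cohort were -2.42 and -1.49 for Kap, -3.08 and -3.60 for Slc7a13, and -2.07 and -1.09 for Slco1a1. Cyp7b1 stood at -0.80 and -0.26 and Odc1 at -0.16 and 0.01. The values of all 5 genes moved with the reference. Against the straight genes alone Kap stood at -1.94 and -1.23 in the 2 cohorts, Slc7a13 at -2.59 and -3.33, and Slco1a1 at -1.59 and -0.82. Against the convoluted genes alone Kap stood at -2.75 and -1.67, Slc7a13 at -3.40 and -3.77, and Slco1a1 at -2.39 and -1.26. In the second cohort Cyp7b1 stood at 0.0027 against the straight genes alone and -0.44 against the convoluted genes alone, and Odc1 at 0.28 and -0.16.

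Other tubule genes were read from lists that hold none of the 5. Of 10 genes of the straight proximal tubule, 8 were lower than Control on day 3, 8 on day 7 and 9 after nephrectomy. Over all genes 14.9%, 18.1% and 14% were called lower. The median log2 fold changes of the list were -1.90, -1.70 and -2.08, beside a median of at most 0.04 over all genes. For nephrectomy against none on day 7, 1 of 10 was lower in the first cohort and 2 of 10 in the second. In that comparison 3.46% and 2.66% of all genes were called lower. The gene lower in both was Atp11a, a lipid flippase, at -0.94 (edgeR adjusted p = 0.0268) and -0.53 (adjusted p = 0.0451), calls that were lost in 6 of 21 and 12 of 18 alternatives. Of 15 genes of the convoluted part, 10 were lower than Control on day 3, 14 on day 7 and 7 after nephrectomy, beside the same shares over all genes of 14.9%, 18.1% and 14%. Against day 7 without nephrectomy 4 of 15 were higher in the first cohort and 3 of 15 in the second, among them the lactate transporter Slc5a12 (log2 1.23, adjusted p = 0.000339, and 1.05, adjusted p = 0.0245) and the neutral amino acid transporter Slc6a19 (1.75, adjusted p = 0.000921, and 0.80, adjusted p = 0.016). Its second-cohort call was lost without WT IR+Nx d7 replicate 2 (0.66), and that of Slc5a12 in 4 of 18 alternatives. Over all genes 3.17% and 2.58% were called higher. Without UIRI d7 replicates 5 and 6, 6 of 15 were higher. No gene of the convoluted list was called lower in this comparison in either cohort, and no gene of the straight list was called higher.

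Of 15 other genes known to be higher in male than female kidney, 13 were lower than Control on day 3, 14 on day 7 and 14 after nephrectomy, where 14.9%, 18.1% and 14% of all genes were. The medians of the list were -1.52, -2.15 and -2.25. The steroid hydroxylase Cyp2a4 fell from 308 CPM in Control to 8.28 after nephrectomy (log2 -5.20, edgeR adjusted p = 1.16e-08). For nephrectomy against none on day 7, edgeR called 0 of 15 in the first cohort (median -0.25), also without UIRI d7 replicates 5 and 6 (median -0.32). At an unadjusted p under 0.05, 1 was higher and 2 lower, and DESeq2 called 1 lower. In the second cohort 5 of 15 were lower (median -0.60), where 2.66% of all genes were, and a difference of the list between cohorts was not tested. The organic anion transporter Slc22a30 was lower in the second cohort by -2.02 (edgeR adjusted p = 0.00489). In the first it stood at -1.51 and was not called, save with the library block as a covariate (-1.72) or without UIRI+Nx d7 replicate 1 (-2.13). The 5 male-biased genes lower in the second cohort were Cyp2a4 (call lost in 8 of 18 alternatives), Cndp2 (lost in 5 of 18), Slc22a30 (lost in none of 18), Akr1c21 and Hsd11b1, and Akr1c21 and Hsd11b1 are named after their values were seen. Of 10 genes higher in female kidney, 4 were higher and 2 lower than Control after nephrectomy, with a median of 0.67. Over all genes 17.3% were higher and 14% lower. Against day 7 without nephrectomy 1 was higher and 1 lower in each cohort, of 10 tested in the first and 9 in the second. Over all genes 3.17% and 2.58% were called higher and 3.46% and 2.66% lower. The genes differed between cohorts. In the first they were Kynu (call lost in 3 of 21 alternatives) and Slc22a7 (lost without UIRI d7 replicate 3). In the second they were Cyp4a14 and Gm4450, a pair named after their values were seen.

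**Figure D4:**
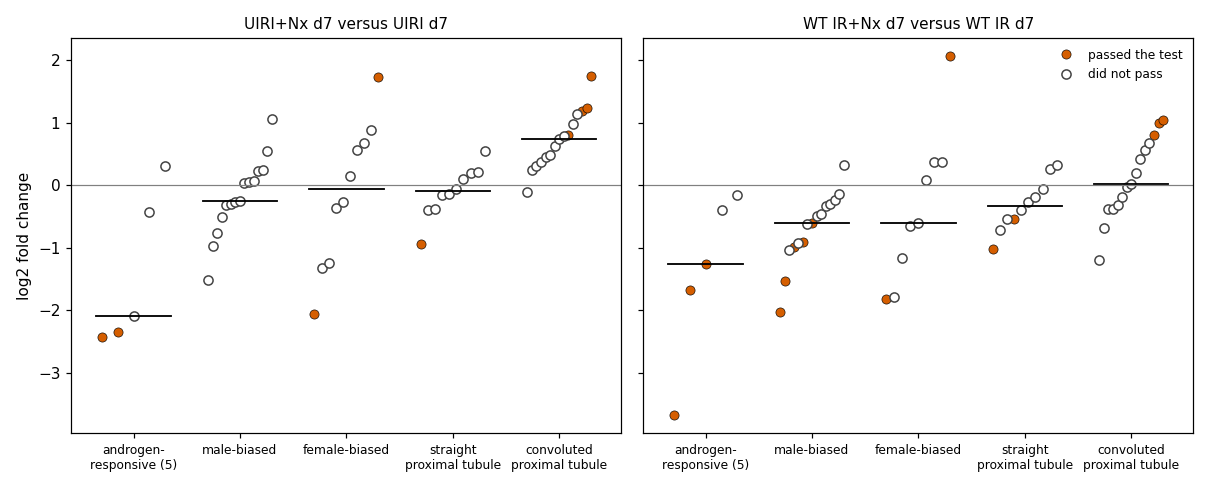
Log2 fold change on day 7, nephrectomy against none, of the 5 androgen-responsive genes and of the genes of 4 lists, first cohort on the left and second on the right; filled points had an adjusted p under 0.05, open points did not, and the bar is the median. The median of the 5 genes is -2.09 and -1.25, that of the male-biased list -0.25 and -0.60, and that of the convoluted list 0.73 and 0.03.

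Genes of steroid handling were measured in the same libraries. Srd5a1, a reductase that turns testosterone into dihydrotestosterone, was higher than Control in all 3 injured groups of the first cohort. Its log2 fold change was 0.98 on day 3 (edgeR adjusted p = 0.00102), 0.89 on day 7 (adjusted p = 0.00205) and 0.60 after nephrectomy (adjusted p = 0.04, call lost in 7 of 21 alternatives). Between nephrectomy and none on day 7 Srd5a1 differed by -0.29 and 0.03 in the 2 cohorts and was not called. Srd5a2 had too few counts to test. Against day 7 without nephrectomy, Fkbp5, a co-chaperone induced by glucocorticoids and androgens, was higher in the first cohort, at 199 ± 100 against 54.2 ± 34.3 CPM (log2 1.88, adjusted p = 0.0139). In the second cohort Fkbp5 stood at 161 ± 25.7 (n = 4) against 120 ± 27.9 CPM (n = 6), a log2 fold change of 0.42 that was not called.

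Genes of the same families and pathways as the single members were read next. Slc3a1, the partner of Slc7a13, stood at 277 CPM in Control, 103 on day 3, 93.6 on day 7 and 136 after nephrectomy. It was lower than Control in all 3, by log2 fold changes of -1.43 (edgeR adjusted p = 0.00185), -1.56 (adjusted p = 0.000608) and -1.02 (adjusted p = 0.0222, call lost in 4 of 21 alternatives). Slc3a1 stood at 0.54 and -0.40 after nephrectomy against day 7 without it, called in neither cohort. Of 11 Slc7 and Slc3 transporters tested, 5 were higher and 1 lower than Control after nephrectomy, where 17.3% and 14% of all genes were. The higher ones included the cystine exchanger Slc7a11 (log2 4.05, edgeR adjusted p = 2.55e-06). EdgeR called 0 of the 11 against day 7 without nephrectomy in either cohort. At an unadjusted p under 0.05, 3 were higher and 1 lower in the first cohort and 1 higher and 2 lower in the second, and DESeq2 called 2 and 1 higher. Slco1a4 and Slco1a6 belong to the family of Slco1a1. Slco1a6 fell from 242 CPM in Control to 60.8 on day 7 and stood at 108 after nephrectomy, where it was higher than on day 7 without nephrectomy (log2 0.83, edgeR adjusted p = 0.00151). In the second cohort Slco1a6 stood at 87.7 CPM after nephrectomy and 64.6 without it (log2 0.44, adjusted p = 0.0805) and was not called. Slco1a1 was called lower in both of these comparisons. Slco1a4 was rare, at 2.62 CPM in Control and 0.592 after nephrectomy.

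Of 17 other genes of polyamine metabolism, 5 were higher and 2 lower than Control after nephrectomy, where 17.3% and 14% of all genes were, and 10 were not called. EdgeR and DESeq2 both called 0 against day 7 without it in either cohort. At an unadjusted p under 0.05, 2 were higher in the first cohort, and the second had 0. Smox, which oxidises spermine, was higher than Control (log2 1.64, edgeR adjusted p = 7.73e-06), Arg2, which supplies ornithine, was higher (3.25, adjusted p = 7.32e-06), and Sms, which makes spermine, was lower (-1.51, adjusted p = 0.000256). Azin2, a regulator of ornithine decarboxylase, stood at -0.32 and was not called. Of 9 oxysterol and bile acid enzymes tested, 6 were lower than Control on day 3, 7 on day 7 and 4 after nephrectomy, where 14.9%, 18.1% and 14% of all genes were. Those lower after nephrectomy included Acox2 (-1.80, adjusted p = 4.96e-08) and Amacr (-2.53, adjusted p = 0.00142), which act on the sterol side chain. Cyp27a1, which makes an oxysterol that Cyp7b1 acts on, was lower on day 3 (-1.15, adjusted p = 0.0036) and stood at -0.41 after nephrectomy, where it was not called.

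Among the 5 genes, the log2 levels of Kap, Slc7a13 and Slco1a1 followed each other over libraries of both cohorts. Pearson's r was 0.938 over 24 libraries of the first cohort and 0.923 over 16 of the second for Kap and Slco1a1, 0.906 in each cohort for Kap and Slc7a13, and 0.921 and 0.900 for Slc7a13 and Slco1a1. The libraries share their groups and, in the first cohort, the large step from Control, so these values are descriptions. Cyp7b1 followed Kap in the first cohort (0.756), which holds Control kidneys, and not in the second (-0.114), which holds none. Odc1 stood at 0.676 and 0.582 with Kap.

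The genes whose log2 level was most like that of each member over the 24 libraries of the first cohort were named by Pearson's r, and r over the 16 libraries of the second is given beside it. For Kap they were Inmt (0.966 and 0.890), Dnase1 (0.935 and 0.852), Atp11a (0.928 and 0.691) and Serpinf2 (0.927 and 0.887). For Slc7a13 they were Mep1b (0.984 and 0.807), Atp11a (0.963 and 0.695), Slc22a30 (0.953 and 0.902) and Macrod2 (0.951 and 0.896). Atp11a stood on the lists of 3 members, since it was also first for Slco1a1 (0.962 and 0.726), followed by Pzp (0.950 and 0.894), Acsm3 (0.949 and 0.822) and Inmt (0.939 and 0.887). For Odc1 they were Aldh8a1 (0.940 and 0.844), Ndufs1 (0.937 and 0.622), Slc22a6 (0.934 and 0.829) and Eci3 (0.934 and 0.660). For Cyp7b1 they were Acox2 (0.973 and -0.103), Napsa (0.958 and 0.705), Egf (0.956 and 0.05) and Wfdc15b (0.954 and 0.405), and its likeness to Acox2 and Egf was absent in the cohort without Control kidneys.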

How the data were processed

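The values are raw counts of 48795 genes in 40 kidney libraries and 1 column named Undetermined, deposited by the authors as 1 table and made from QuantSeq 3′ libraries of 500 ng RNA, per the labels' protocols. Per the submitters' processing notes, Trimmomatic, STAR and HTSeq 0.6.1 on GRCm38 (mm10) were used for the first cohort, and STAR 2.7.11b on GRCm39 for the second. For neither is the annotation release or strand setting given in the sources used here, nor how reads of the second were counted. Symbols were found for 48349 identifiers and not for 446. A column was given to a group by the library name in its label. No 2 libraries held identical values. Beyond the number of mice in each group of the first cohort, the labels do not say that libraries came from separate animals, so p values measure the spread between these libraries.

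The test was edgeR 4.0.16 (quasi-likelihood, R 4.3.3), run per cohort over all of its groups with TMM scaling and filterByExpr, which left 15701 and 15543 genes, the 5 genes among them in both cohorts. Benjamini-Hochberg adjustment covered every gene tested, and the threshold was 0.05. CPM use TMM-scaled library sizes, and log2 levels a prior count of 2. On simulated data a sample of genes, the rarest left out, was changed among 15483 genes tested. The fit recovered 57% of the 2-fold and 90% of the 4-fold changes. The simulation held no other differences between groups and no libraries that stand apart, so rates in the real data can differ. The alternatives were other scalings, no filter, DESeq2 1.42.0, fits of only the groups compared, blocks by replicate number or library set, and leaving out libraries.

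The 5 genes and all lists were chosen with earlier results of these data known. The genes named from a list were up to 4 with the smallest adjusted p for nephrectomy against none on day 7 in the first cohort, up to 3 with the smallest adjusted p for nephrectomy against Control, and a few relatives of the 5 genes. Leaving out UIRI d7 replicates 5 and 6 together was chosen after seeing the data. The replicate numbers of the titles did not pair libraries: deviations from group means correlated between -0.424 and 0.447 for equal numbers.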

Additional observations from a re-analysis of the deposited data

Results flagged for a closer look

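Over 77 sets of libraries, 7 groups for each of 11 genes, 4 held a library whose gap to its nearest neighbour was a large share of the whole range of its group; chance gives this in about 1 in 20 groups. Slc7a13 in UIRI+Nx d7 replicate 1 stood at 51.5 CPM, above the next library at 14.8. Slco1a1 in UIRI+Nx d7 replicate 2 stood at 6.74 CPM, above the next at 3.02. Odc1 in UIRI d3 replicate 6 stood at 40.0 CPM, above the next at 26.7. Slc3a1 in WT IR+Nx d7 replicate 2 stood lowest, at 43.2 CPM. UIRI d7 replicates 5 and 6 did not meet this rule, since 2 low libraries are each other's neighbours.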

How the results depend on the processing

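No value of the 5 genes changed sign where it had been called, under any alternative run. The counts of genes called moved by more than 1.5 times in these cases: for UIRI+Nx d7 against UIRI d7, 586 in place of 1040 with only these groups in the fit; for UIRI d7 against UIRI d3, 714 in place of 409 with DESeq2; for WT IR+Nx d7 against WT IR d7, 1249 in place of 814 with DESeq2; and for WT IR d7 against WT IR d3, 349 in place of 1330 with the library block as a covariate. The cause was not tested, and in the last of these cases day and library block were partly confounded. Leaving out 1 library at a time gave 247 to 405 genes for UIRI d7 against UIRI d3, 524 to 914 for UIRI+Nx d7 against UIRI d3 (805 with all), 328 to 898 for WT IR+Nx d7 against WT IR d7 and 554 to 1147 for WT IR+Nx d7 against WT IR d3 (935 with all), the lowest of the last pair without WT IR+Nx d7 replicate 2. The lowest of the first pair were without UIRI d7 replicate 3 and UIRI+Nx d7 replicate 4, and UIRI d7 replicate 2 (263), UIRI+Nx d7 replicate 3 (525) and WT IR+Nx d7 replicate 4 (615 against WT IR d3) also moved a count by over 1.5 times. It gave 1 to 3 of the 5 genes called lower for UIRI+Nx d7 against UIRI d3, 2 to 3 for nephrectomy against none in each cohort, and 0 to 1 for WT IR d7 against WT IR d3. Relative to the straight tubule genes alone, Kap stood at -0.72, Cyp7b1 at -3.24 and Odc1 at 0.45 (convoluted alone -0.46) on day 3 against Control. After nephrectomy against Control they stood at -3.60, -2.94 and 0.53 (convoluted alone -0.46). For nephrectomy against none in the first cohort Cyp7b1 stood at -0.32 and Odc1 at 0.32 (convoluted alone -0.48). For UIRI d7 against UIRI d3 Cyp7b1 stood at 0.62 and Odc1 at -0.25 (convoluted alone 0.48), and for WT IR d7 against WT IR d3 Kap stood at -0.91, Odc1 at -0.55 and Slco1a1 at -0.50. With total counts only as the scaling, the median of all genes shifted to 0.26, 0.39 and 0.29 against Control on day 3, on day 7 and after nephrectomy, and calls that were higher made up 76.5%, 78.3% and 76.5% in place of 54.4%, 54.2% and 55.2%. For nephrectomy against none they made up 29.9% in place of 47.8% and 31.3% in place of 49.3%, for UIRI d7 against UIRI d3 66.0% in place of 47.7%, and for WT IR+Nx d7 against WT IR d3 37.5% in place of 49.4%. The number of the 5 genes called lower did not change with this scaling, and Odc1 stood at -1.34 on day 7 against Control.

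The replicate numbers do not pair the libraries. With the replicate number as a block, UIRI+Nx d7 against UIRI d7 gave 963 genes and WT IR+Nx d7 against WT IR d7 gave 796, and Slc7a13 was called in the first cohort (log2 -2.33). It was also called there with the library block as a covariate (-2.38) and with DESeq2 (-2.13). The lowest library of Slc7a13 held 10 counts, which limits the precision of its value there. A count of the difference between cohorts by DESeq2 was not run.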

Other observations

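The deposited sample titled UNDETERMINED, whose column has the same name, held 12446693 counts. Sequencing software gives this name to reads that no sample index claims, and the labels do not say whether they come from 1 kidney or several, so the values are not those of a known kidney. Kap stood there at 12542 CPM (95% Wilson interval 12480.0 to 12604, counting error only), Slc7a13 at 100.3 (94.9 to 106), Cyp7b1 at 17.7 (15.5 to 20.2), Odc1 at 30.8 (27.8 to 34.0) and Slco1a1 at 26.6 (23.9 to 29.6). These levels are on its plain total count.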
